A study of Mus musculus with 24 samples.

Results

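The brains of mice kept awake for 6 h were compared with those of undisturbed mice by the total RNA of the whole brain. This comparison used 8 of the 24 oligonucleotide arrays of a series on sleep loss, 4 labelled as whole brain after sleep deprivation (numbers 18 to 21 in the labels) and 4 as whole-brain controls (22 to 25). All were male mice of 12 weeks. From light onset they were kept awake by gentle handling, in which an observer disturbs an animal that begins to sleep, or were left alone, and both groups were taken at Zeitgeber time 6, that is 6 h after light onset. Brain RNA was extracted without fixation. Strain and genotype of the animals are not given in the sources used here, and no batch or scan day is named. The rest of the series was 12 arrays of RNA pulled down from cells expressing Homer1a and 4 arrays of what the pull-down left, from perfused and fixed brains. Levels are log2 RMA intensities, on which 1 unit is a 2-fold difference. Differences are sleep-deprived minus control with their SE, and group means carry the SD (n = 4 and 4). Whole brain pools all cells, so fewer cells of a type and less RNA per cell cannot be told apart.

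Prolonged waking is known to engage several gene programmes in the rodent brain. Firing neurons switch on immediate early genes through the transcription factors CREB and SRF. Sleep deprivation by handling raises circulating corticosterone, which enters cells and acts through the glucocorticoid receptor on response elements in DNA. Longer waking also engages the clock genes of the Period family and the chaperones of the endoplasmic reticulum, and it warms the brain, to which cold-inducible RNA-binding proteins respond.

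Of 45037 probe sets, 21 passed at an adjusted p under 0.05 (limma, Benjamini-Hochberg over all probe sets, 0.0466% of those tested), 16 higher (0.0355%) and 5 lower (0.0111%) after sleep deprivation. They stand for 15 named genes, 12 higher and 3 lower, and 3 probe sets without a symbol. The promoters of 4 of the higher genes are shown because each holds letters that the factors named above are known to bind. Each run is the 250 bases before the transcript start, from RefSeq, assembly GRCm38.p6, with the motif in capitals. Fos lies at chr12:85473640-85473889 (+ strand) and holds TGACG, the core of the CREB site, at 129 and again at 66 bases before the start. Dio2 at chr12:90739039-90739288 (− strand) holds the complete CREB site TGACGTCA, which begins 95 bases before the start. Egr2 at chr10:67537316-67537565 (+ strand) holds an SRF site of the CArG box type, 72 bases before the start. Sgk1 at chr10:21993640-21993889 (+ strand) holds a pair of overlapping matches, 1 on each strand, to the glucocorticoid response element (AGAACA, 3 bases of any kind, TGT), the outermost 189 bases before the start.
Fos: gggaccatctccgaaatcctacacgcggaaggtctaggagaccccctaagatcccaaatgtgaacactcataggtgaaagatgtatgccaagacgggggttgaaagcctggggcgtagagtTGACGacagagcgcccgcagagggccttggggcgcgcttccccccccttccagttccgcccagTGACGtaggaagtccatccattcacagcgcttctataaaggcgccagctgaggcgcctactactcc
Dio2: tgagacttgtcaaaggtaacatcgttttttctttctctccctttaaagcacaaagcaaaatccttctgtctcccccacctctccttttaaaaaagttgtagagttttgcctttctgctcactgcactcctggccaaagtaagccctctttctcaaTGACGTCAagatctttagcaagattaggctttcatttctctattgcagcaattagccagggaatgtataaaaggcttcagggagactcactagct
Egr2: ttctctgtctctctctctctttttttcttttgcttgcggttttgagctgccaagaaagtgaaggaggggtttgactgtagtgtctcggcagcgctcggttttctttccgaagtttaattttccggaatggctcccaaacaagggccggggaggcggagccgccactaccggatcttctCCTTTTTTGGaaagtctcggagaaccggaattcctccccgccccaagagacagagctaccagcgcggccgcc
Sgk1: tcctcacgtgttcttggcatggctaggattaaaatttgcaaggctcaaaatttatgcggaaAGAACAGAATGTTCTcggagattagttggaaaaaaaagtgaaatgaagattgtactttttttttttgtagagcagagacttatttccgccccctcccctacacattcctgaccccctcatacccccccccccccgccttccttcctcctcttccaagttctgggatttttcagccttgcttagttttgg
Egr2 and Sgk1 have several listed starts. For Sgk1 the window with the match is shown. For Egr2 the most upstream window with a match is shown. The windows of Egr2 further downstream also hold a CArG box, at a site outside the bases shown. RefSeq windows were found for 9 of the 12 higher genes and 3 of the 3 lower ones. On either strand of any window, TGACG stood in 6 of the 9 and in 19.8% of all 27025 genes. The count for TGACG includes the complete site. A gene with more starts had more windows in which to match. Sgk1 had 6 windows and Egr2 had 5, while all 27025 genes together had 32851. TGACGTCA stood in 1 of the 9 and in 1.77% of all genes, the CArG box in 1 and 1.62%. The glucocorticoid response element stood in 1 and 0.429%, and its first part AGAACA alone in 3 and 18.2%. Searched as well, CACGTG stood in 2 and 6.86%, and CCAAT, 9 bases of any kind, CCACG in 0 and 0.13%. The windows of Plin4, Hif3a and Mertk held none of these motifs. Of the 3 lower genes 1, Creb5, held TGACGTCA, which begins 45 bases before 1 of its 2 listed starts. TGACG stood in 1 of the 3, again Creb5, and the CArG box, the glucocorticoid response element and AGAACA in 0. CACGTG too stood in 1 of the 3, Creb5. A match is a description of these letters and not evidence of binding.

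The arrays differed in the signal of pituitary hormone genes. Growth hormone (Gh), which the anterior pituitary makes and the brain hardly does, read 13.11, 7.07, 9.95 and 13.25 on sleep-deprived arrays 18, 19, 20 and 21, and 12.15, 12.07, 13.29 and 12.38 on controls 22, 23, 24 and 25. Arrays 19 and 20 were thus the lowest of the 8. Prolactin (Prl) followed the same order among the sleep-deprived arrays, with 9.43, 4.25, 6.44 and 9.93 against 8.67, 7.30, 10.29 and 9.15. So did Pomc, the precursor of corticotropin, with 10.35, 6.73, 6.94 and 11.04 against 10.16, 9.41, 10.91 and 9.90. The group differences of −1.63 ± 1.01 for Gh, −1.34 ± 0.99 for Prl and −1.33 ± 0.79 for Pomc were within the spread of the arrays. Of the 7 measured pituitary genes 5 had a group difference below 0 and 2 above, the highest 0.16. The mean of the 7 pituitary genes spanned 5.39 to 8.52 in sleep-deprived and 7.21 to 8.67 in control arrays. The mean of 15 neuron markers stayed at 10.79 to 10.85 and 10.70 to 10.84. Without arrays 19 and 20, a setting added after the data were seen, 1 probe set passed in place of 21, that of Plin4. The part of this signal in the other results was not tested.

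**Figure D1:**
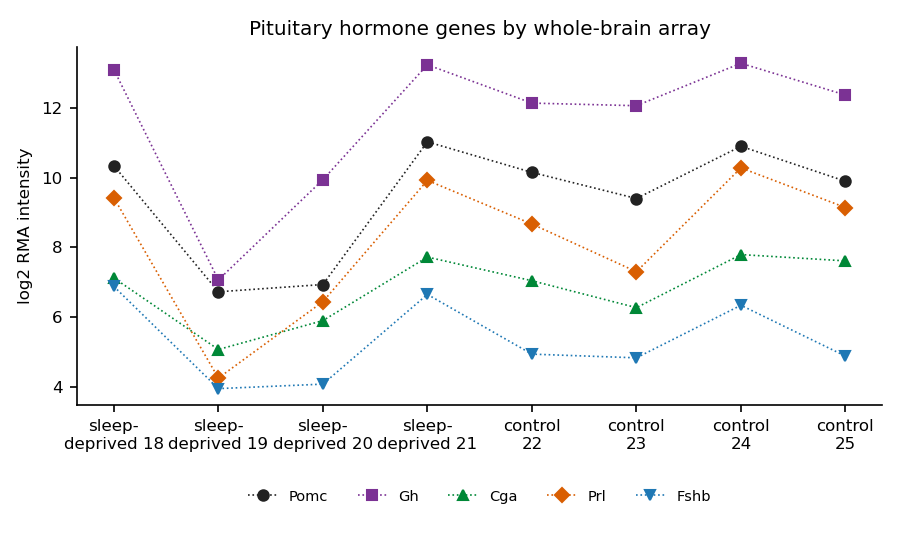
Log2 RMA intensity of 5 of the 7 measured pituitary genes on each of the 8 whole-brain arrays. Dotted lines only join points of 1 gene. Sleep-deprived arrays 19 and 20 read lowest for Gh, Prl, Pomc, Cga and Fshb, while sleep-deprived arrays 18 and 21 lie among or above the controls.

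Genes that glucocorticoids induce gave the most calls among the lists of function. The largest rise was that of Plin4, a coat protein of lipid droplets. It read 6.87, 7.09, 6.70 and 6.92 in sleep-deprived brains and 5.44, 5.41, 5.53 and 5.25 in controls. Every sleep-deprived value lay more than 1 unit above every control, and Plin4 rose by 1.48 ± 0.12, or 2.80-fold (adjusted p = 0.00032). It passed in 16 of the 17 alternative settings in which it was tested, all but the joint fit with the pull-down arrays. Sgk1, a kinase that acts on ion channels and transporters, read 9.86, 10.56, 9.94 and 10.41 against 9.08, 8.92, 9.19 and 8.96. Arrays 19 and 21 were highest, and Sgk1 rose by 1.16 ± 0.16 (0.0208). Hif3a, of the hypoxia-inducible factor family, read 7.04, 7.06, 7.24 and 6.96 against 6.35, 6.01, 5.63 and 5.93, and rose by 1.10 ± 0.14 (0.0193) at 1447061_at. The other 5 Hif3a probe sets read −0.08 to 0.26 and did not pass.

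Tsc22d3, the glucocorticoid-induced leucine zipper, read 8.50, 8.85, 8.60 and 8.75 against 7.80, 7.58, 7.87 and 7.89, and rose by 0.89 ± 0.12 (adjusted p = 0.0202, limma). Its other probe sets read 0.48, −0.04 and −0.24 and did not pass. Zbtb16, a zinc finger repressor, rose at 1419874_x_at by 0.97 ± 0.12 (0.0140), where controls were tight at 7.05 to 7.14 and sleep-deprived brains read 7.82 to 8.33. It rose at 1439163_at by 0.85 ± 0.12 (0.0270), and read 0.66 ± 0.12 at 1427638_at (0.104). Mertk, a receptor by which astrocytes and microglia take up debris, read 8.67, 8.80, 8.62 and 8.45 against 7.86, 7.90, 8.04 and 7.85, and rose by 0.72 ± 0.11 (0.0408). At the called probe sets of these 6 genes the groups did not overlap. Of 25 measured genes of this list 6 were called higher, beside 0.0605% of all 18193 genes at 1 probe set a gene, and 0 lower, beside 0.0055%. At an unadjusted p under 0.05, 21 of 25 were higher and 0 lower, beside 2.5% and 8.03% of all genes. The list was chosen with earlier results of these data known, so its counts are a description. The list's median difference was 0.48 and that of all genes −0.06. Quantile normalization gave 0.44 and −0.00, and 25 of 25 above 0 in place of 24. The mean of the 25 was 8.36, 8.50, 8.29 and 8.37 in sleep-deprived brains and 7.88, 7.77, 7.86 and 7.79 in controls.

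**Figure D2:**
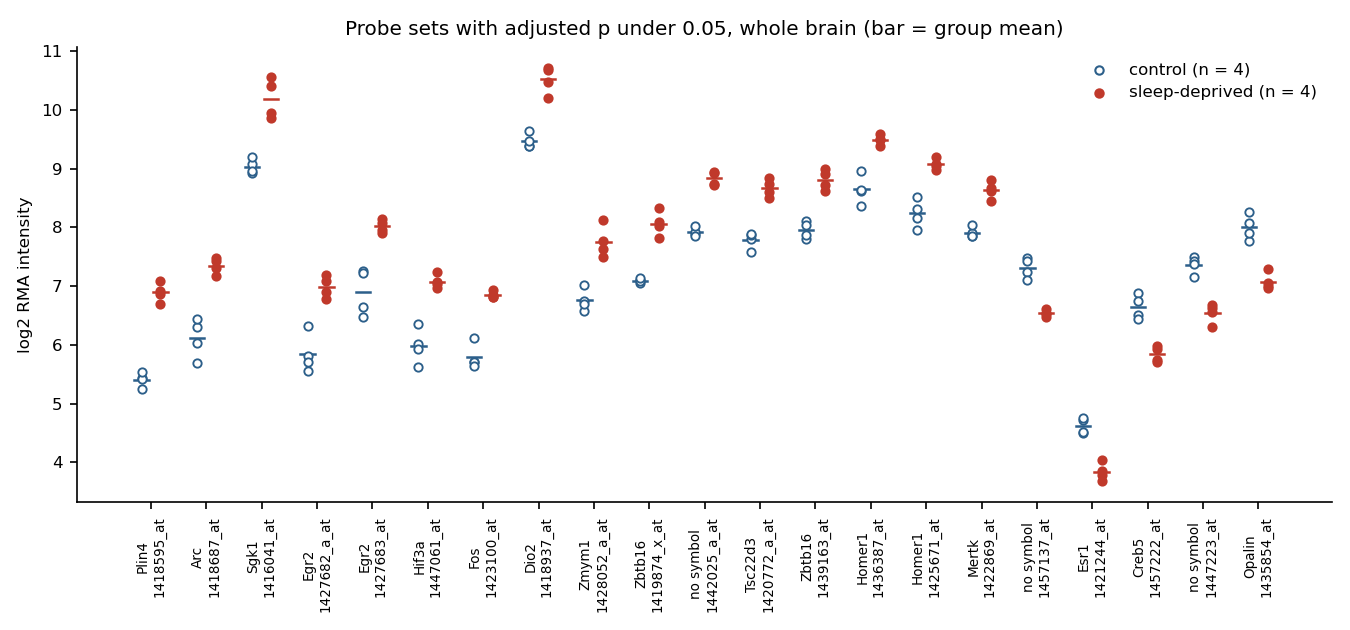
Log2 RMA intensity of the 21 probe sets with an adjusted p under 0.05 (limma), filled for the 4 sleep-deprived and open for the 4 control arrays, with a bar at each group mean. In all 21 the groups do not overlap, from Plin4 with a difference of 1.48 at the left to Opalin with −0.93 at the right.

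Immediate early genes gave the next largest number of calls. Arc, whose protein removes glutamate receptors from synapses, read 7.30, 7.18, 7.43 and 7.47 after sleep deprivation and 6.03, 6.31, 5.69 and 6.45 in controls. The controls spread widely, yet the highest of them was below the lowest sleep-deprived brain, and Arc rose by 1.22 ± 0.15, or 2.34-fold (adjusted p = 0.0140, limma). Fos, a subunit of the AP-1 factor, read 6.81, 6.84, 6.82 and 6.94 against 5.71, 5.70, 6.11 and 5.64. The sleep-deprived brains had an SD of 0.06, control 24 stood above the other controls, and Fos rose by 1.06 ± 0.12 (0.0115). Egr2, a zinc finger transcription factor, read 6.77, 6.90, 7.08 and 7.19 against 5.81, 6.32, 5.56 and 5.71 at 1427682_a_at, and rose there by 1.14 ± 0.16 (0.0250) and at 1427683_at by 1.12 ± 0.17 (0.0371).

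Homer1 encodes a scaffold of the synapse whose short form is induced by activity. At 1436387_at it read 9.49, 9.38, 9.59 and 9.51 against 8.96, 8.62, 8.63 and 8.36, and rose by 0.85 ± 0.13 (adjusted p = 0.0406, limma). It rose at 1425671_at by 0.84 ± 0.13 (0.0408). Both were lost after quantile normalization of the 8 arrays, with 0.0675 and 0.0591. The other 4 probe sets of the gene read 0.13 to 0.46 and did not pass. The Homer1 probe set with the highest level, which the list uses, is among these.

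Of 45 activity-induced genes 3 were called higher and 0 lower, beside 0.0605% and 0.0055% of all genes. At an unadjusted p under 0.05, 17 were higher and 1 lower, beside 2.5% and 8.03%. Above 0 lay 31, beside 36.3% of all genes above and 63.7% below. After quantile normalization 35 of the 45 lay above 0, beside 9081 of all 18193 genes. The groups did not overlap for 17 with higher and 0 with lower values, beside 2.35% and 4.2% of all genes. The median was 0.20. This list too was chosen with earlier results of these data known, so its counts are a description. Dusp1, a phosphatase that ends MAP kinase signals, read 10.17, 10.01, 9.86 and 9.85 against 9.02, 9.10, 9.34 and 9.36, a difference of 0.77 ± 0.12 just short of the threshold (adjusted p = 0.0502, limma). Inhba, a subunit of activin, read 0.70 ± 0.12 (0.0628) and Egr1, another zinc finger factor, 0.63 ± 0.11 (0.0763), each without overlap. With each array centred on its median Inhba (0.0123), Dusp1 (0.0175) and Egr1 (0.0294) passed. After quantile normalization none of the 3 did (0.0819, 0.0511 and 0.0608). The 21 transcription factors of the list had a median of 0.19 and the 24 effectors 0.20.

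Outside these lists, Dio2, the enzyme that makes active thyroid hormone in astrocytes, read 10.20, 10.68, 10.72 and 10.48 after sleep deprivation against 9.38, 9.39, 9.64 and 9.47. The groups lay well apart, and Dio2 rose by 1.05 ± 0.13 (adjusted p = 0.0140, limma). Its other probe sets read 0.63 ± 0.16 and 0.40 ± 0.10 and did not pass. The glucocorticoid and thyroid hormone receptor genes Nr3c1 and Thra read −0.08 and −0.09. Zmym1, a zinc finger gene, read 7.49, 8.13, 7.64 and 7.76 against 6.58, 7.02, 6.74 and 6.70, and rose by 1.00 ± 0.15 (0.0363). The probe set 1442025_a_at, which has no symbol, rose by 0.92 ± 0.11 (0.0115), with 8.73 to 8.94 against 7.85 to 8.02. Noxred1 read 0.92 ± 0.15 (0.0502).

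Opalin, a membrane protein of myelinating oligodendrocytes, had the largest fall of those called. It read 7.01, 6.96, 7.05 and 7.28 after sleep deprivation and 7.76, 7.91, 8.27 and 8.07 in controls. All sleep-deprived brains lay below all controls, and Opalin fell by 0.93 ± 0.13, or 1.90-fold (adjusted p = 0.0250, limma). Its other probe set, at the low level of 3.26 and 3.49, read −0.23 ± 0.13. Pllp, plasmolipin, another myelin membrane protein, read 7.41 ± 0.19 against 8.10 ± 0.10, without overlap and short of the threshold (−0.69 ± 0.12, 0.0788). Of 16 oligodendrocyte markers 12 lay below 0, beside 63.7% of all genes, with a median of −0.13 as deposited and after quantile normalization. After centring the median was −0.05, beside 0.03 for all genes, and 7 of the 16 lay above 0. The groups did not overlap for 4 of the 16 with lower and 0 with higher values, beside 4.2% and 2.35% of all genes. At an unadjusted p under 0.05, 2 of the 16 were lower, beside 8.03% of all genes. After quantile normalization 3 of the 16 were, beside 659 of all 18193 genes, and after centring 1, beside 588. Opalin was called, Mog, at the outer face of myelin, read −0.31 ± 0.12, Mag, an adhesion protein of myelin, −0.23 ± 0.16, Mbp, the basic protein, −0.06, and Sox10, the lineage factor, −0.02.

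Creb5, of the CREB family, read 5.97, 5.74, 5.93 and 5.71 against 6.51, 6.44, 6.88 and 6.74 at 1457222_at and fell by 0.81 ± 0.13 (adjusted p = 0.0424, limma). The gene's other 3 probe sets read −0.54, −0.39 and −0.37 and did not pass. Esr1, the oestrogen receptor, read 3.78, 4.04, 3.84 and 3.68 against 4.50, 4.52, 4.72 and 4.76 at 1421244_at, and fell by 0.79 ± 0.12 (0.0363). Only 14.2% of probe sets read lower than that one, and the other Esr1 probe sets, at higher signal, gave 0.03 ± 0.14 and −0.16 ± 0.13. The remaining calls, 1447223_at (−0.81 ± 0.12, 0.0363) and 1457137_at (−0.78 ± 0.11, 0.0363), have no symbol. After quantile normalization Creb5 had 0.0681, Esr1 0.0891 and 1457137_at 0.0511, so that 2 of the 5 falls passed.

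The 12 largest falls among probe sets of 1 gene, above the median level, with groups that do not overlap and an unadjusted p under 0.005, held Opalin and Creb5 and 10 genes that did not pass. Cirbp, the cold-inducible RNA-binding protein, read 7.02, 7.03, 6.90 and 7.48 against 7.84, 8.32, 7.68 and 8.05 (−0.87 ± 0.16, adjusted p = 0.0935, limma). It lay lower in all sleep-deprived brains than in all controls. Mapk12, a p38 kinase, read −0.74 ± 0.16, Trim59 −0.78 ± 0.18, Kcns2, a silent potassium channel subunit, −0.62 ± 0.14, and Rwdd3 −0.62 ± 0.12. The other 5 were 8430419K02Rik (−0.95 ± 0.21), Gm32031, Pllp, Spata24 and Rnf207 (−0.59 ± 0.12). In the pull-down these genes went both ways, with −0.83 for Cirbp and −0.88 for Spata24 but 0.63 for Mapk12, 0.55 for Rwdd3, 0.51 for Kcns2 and 0.26 for Rnf207. Under the same rule 125 probe sets of 108 genes read higher and 96 of 94 genes lower. Above the median level the balance was the other way at an unadjusted p under 0.05 without the conditions on overlap and symbol. There 770 rises and 1123 falls were counted.

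Over the whole array falls were far more frequent. At an unadjusted p under 0.05 stood 4926 probe sets (10.9%), of which 947 were higher (2.1%) and 3979 lower (8.83%). Of all probe sets 33.3% lay above 0 and 66.7% below. Groups did not overlap for 789 probe sets with higher sleep-deprived values (1.75%) and 1916 with lower ones (4.25%). The falls were small. Their median size was 0.35, and 5% to 95% of them lay between 0.26 and 0.56. None of the 3979 exceeded 1 unit, whereas 8 of the 947 rises did, and the rises had a median size of 0.34 and a 95% point of 0.65. Here 413 falls and 116 rises were over 0.5. The median of all probe sets was −0.07.

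**Figure D3:**
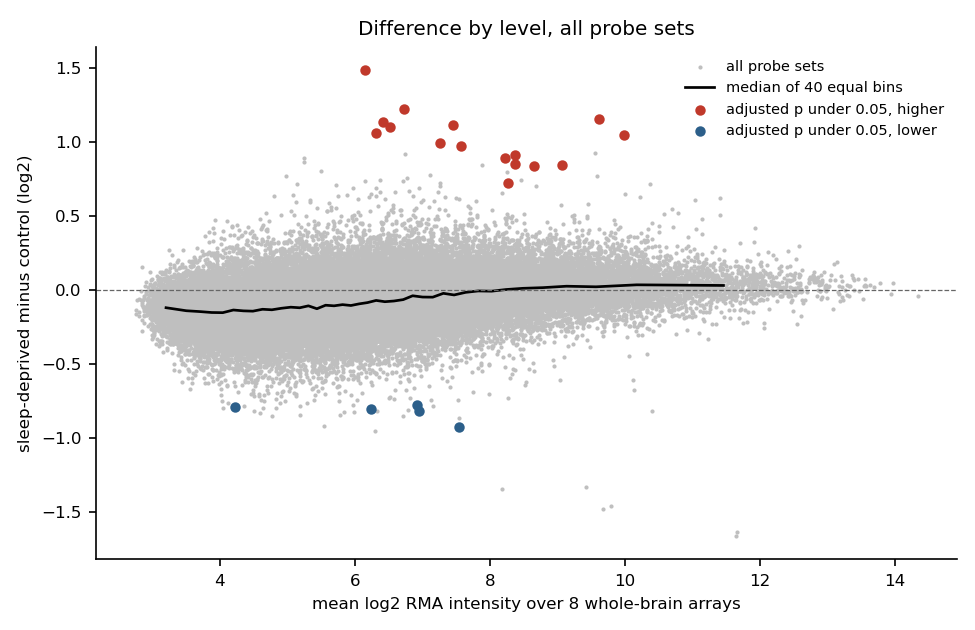
Difference between sleep-deprived and control means (log2) of every probe set against its mean level over the 8 arrays, with called probe sets in colour and the running median as a line. The line lies below 0 at low levels and slightly above 0 at high levels, and the median over all probe sets is −0.07.

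These falls belonged mostly to weak signals. Of the falls at an unadjusted p under 0.05 28.2% lay above the median level of all probe sets, and of the rises 81.3%. With probe sets in 5 equal groups from the lowest to the highest level, the median difference was −0.14, −0.12, −0.09, −0.03 and 0.02. The share below 0 was 84.3%, 76.7%, 70.0%, 58.8% and 43.7%. Unadjusted falls numbered 1215, 1142, 925, 539 and 158 in that order, and rises 28, 93, 163, 285 and 378, so that rises outnumbered falls in the highest group alone.

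Gene families known from tissues other than brain lay with the weak signals. Of 43 probe sets of olfactory receptors, which belong to the nose, 39 lay below 0, with a median of −0.13. Of 34 vomeronasal receptors 31 did, with a median of −0.14, and of 68 keratins, the filaments of skin and hair, 56. Of 624 zinc finger genes named Zfp, which the brain does express, 370 lay below 0, with a median of −0.04. After quantile normalization the olfactory receptors had a median of 0.01 and the keratins −0.03.

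The low-level shift varied between arrays. Against the control mean, the lowest level group had a median of −0.21, −0.10, −0.02 and −0.25 on sleep-deprived arrays 18, 19, 20 and 21, and of 0.12, −0.08, −0.03 and −0.03 on controls 22, 23, 24 and 25. Arrays 18, 19 and 21 lay below the lowest control, control 22 was highest, and array 20 lay among the controls. The array median was 6.09 ± 0.06 after sleep deprivation and 6.17 ± 0.05 in controls (exact two-sided permutation test, p = 0.0857, 0.267 adjusted over 7 array measures, where 4 against 4 cannot go below 0.0286). The 3′ minus 5′ difference of Gapdh, which is larger where RNA is shorter or copied less far, was 2.86 ± 0.10 and 2.65 ± 0.12 (exact permutation test, p = 0.0571, adjusted 0.267), and that of actin −0.43 and −0.42. The 18S control read 13.83 and 13.86. The part of RNA length in the falls was not tested.

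**Figure D4:**
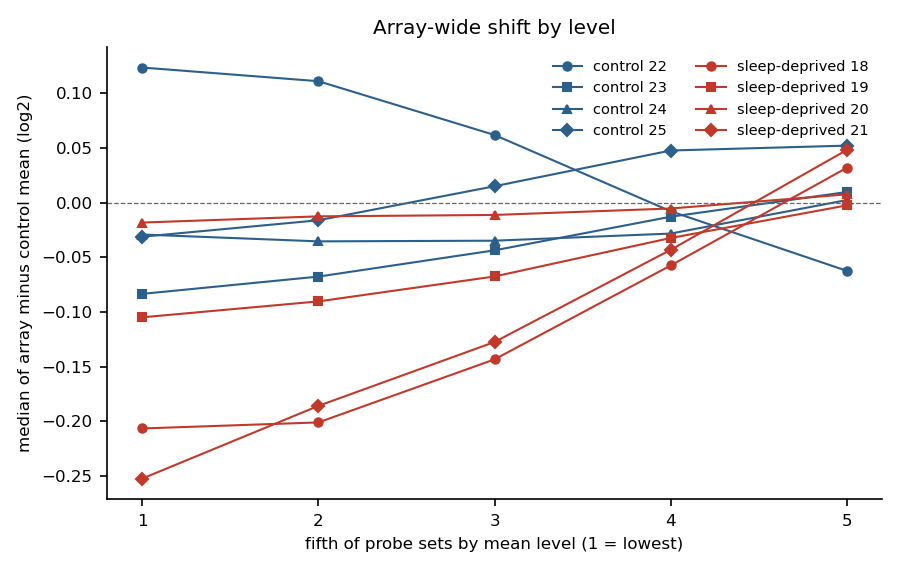
Median over the probe sets of each level group of array minus control mean (log2), 1 line an array, from the lowest level (1) to the highest (5). Sleep-deprived 18 and 21 lie lowest at low levels with −0.21 and −0.25, control 22 lies highest with 0.12, and the 8 lines lie closer together at high levels.

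The number of falls depended on the scaling, whereas most calls did not. Quantile normalization of the 8 arrays gave 1914 unadjusted rises (4.25%) and 1692 falls (3.76%), with 18 (0.04%) and 2 (0.00444%) called and a median of −0.0012. Centring each array on its median gave 2434 rises (5.4%) and 1673 falls (3.71%), with 40 (0.0888%) and 6 (0.0133%) called. Of the 3979 falls, 1598 remained falls at an unadjusted p under 0.05 after quantile normalization and 1672 after centring, and of the 947 rises 904 and 947. Of the 21 calls 16 remained after quantile normalization and 21 after centring. The number called was 1 without sleep-deprived array 19 or 21, 10 without 20, 13 without 18, 6 without control 24, 8 without 25, 12 without 22 and 16 without 23. The size of the differences moved less. Over all alternatives run Arc lay between 1.08 and 1.33, Fos between 1.01 and 1.17, Sgk1 between 1.03 and 1.27 and Opalin between −1.01 and −0.84.

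Pull-down RNA came from other animals, 6 sleep-deprived and 6 control, and shares no array with whole brain. Of the 16 called rises 16 were above 0 there, 9 at an unadjusted p under 0.05, and of the 5 called falls 4 were below 0. In the pull-down itself limma called 0 of 45037, with 222 rises (0.493%) and 208 falls (0.462%) at an unadjusted p under 0.05. Fos read 1.19 and Arc 1.24 in the pull-down, close to their whole-brain differences, Egr2 2.04 at 1427682_a_at, Plin4 0.83, Sgk1 0.45 and Mertk 0.02. The difference between extracts passed for 0 probe sets after adjustment in limma (152 at an unadjusted p under 0.05). Sgk1 (0.047), Zmym1 (0.037) and Esr1 (0.019) were among these by unadjusted p.

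The small falls of whole brain were below 0 in the pull-down for 3058 of 3979 (76.9%), and the small rises above 0 for 663 of 947 (70.0%). Of all probe sets 60.5% were below 0 and 39.5% above 0 there. The share below 0 in the pull-down also went with level, at 65.1%, 75.2%, 71.1%, 56.6% and 34.6% from the lowest level group to the highest, so these shares compare sets of unequal level.

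Clock genes lay mostly above control without a call. Per2, a repressor of the clock that rises with waking, read 7.76, 7.59, 7.43 and 7.70 against 7.08, 6.92, 6.64 and 7.03. The groups did not overlap, and the difference of 0.71 ± 0.13 did not pass (adjusted p = 0.0908, limma). Of 19 clock genes 14 were above 0, beside 36.3% of all genes, and 0 were called. After quantile normalization 13 of the 19 were above 0, beside 9081 of all 18193 genes. The list's mean on the arrays was 7.98 to 8.25. In the highest level group of probe sets, which begins at 7.92, only 43.7% lay below 0 as deposited. At an unadjusted p under 0.05, 4 were higher, beside 2.5% of all genes. Nfil3, a repressor of clock output, read 0.41 ± 0.12, Bhlhe40, which competes with the clock activators, 0.46 ± 0.15 and Per1 0.42 ± 0.15. Dbp, an output factor, read −0.18 ± 0.17. The 10 repressors had a median of 0.12 and the 5 activators 0.06.

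Of 24 genes of endoplasmic reticulum chaperones and the unfolded protein response, which include the sensor Atf6, 18 were above 0, beside 36.3% of all genes. The median was 0.10, and 0 were called. After quantile normalization 18 of the 24 were above 0, beside 9081 of all 18193 genes. The list's mean on the arrays was 8.59 to 8.79. In the highest level group of probe sets, which begins at 7.92, only 43.7% lay below 0 as deposited. At an unadjusted p under 0.05, 5 were higher, beside 2.5% of all genes. Hspa5, the main chaperone there, read 11.33, 11.55, 11.28 and 11.38 against 11.12, 10.80, 10.91 and 10.78 (0.48 ± 0.12, adjusted p = 0.226, limma). The groups did not overlap, as was the case for Creld2, a folding factor (0.48 ± 0.11, 0.194). In the pull-down the list's median was 0.36, with Hspa5 at 1.14 and Creld2 at 0.97. Cytosolic heat shock genes were above 0 in 17 of 20, beside 36.3% of all genes, with a median of 0.06 and 0 called. Their mean on the arrays was 9.63 to 9.81, and the highest level group of probe sets had a median of 0.02. After quantile normalization 16 of the 20 were above 0, with a median of 0.05. Chordc1, a partner of Hsp90, was tight at 10.43 to 10.48 against 10.03 to 10.24 (0.34 ± 0.10). Dnajb5 read 0.49 ± 0.13 and Dnajb1 0.36 ± 0.12, both partners of Hsp70.

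Splicing factors went both ways around a median of 0.04 in 30 genes, 18 above 0. At an unadjusted p under 0.05, 5 were higher and 1 lower, beside 2.5% and 8.03% of all genes. The kinases Prpf4b (0.37 ± 0.11) and Clk1 (0.29 ± 0.11) and the SR-type factors Tra2a (0.36 ± 0.11) and Srsf10 (0.34 ± 0.10) each had groups that do not overlap, and none passed. Neat1, the scaffold RNA of nuclear paraspeckles, read 9.06, 8.87, 8.90 and 9.08 against 9.47, 9.26, 9.31 and 9.37 (−0.38 ± 0.11, adjusted p = 0.3, limma), and the other 9 nuclear noncoding RNAs lay between −0.08 and 0.17.

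The lists of metabolism held 0 calls. In the list of amino acid supply Slc38a2, which carries neutral amino acids, was very even, with 9.76, 9.78, 9.71 and 9.75 against 9.11, 9.23, 9.23 and 9.12 (0.58 ± 0.10, adjusted p = 0.0763, limma). In that of glucose uptake Slc2a1, the glucose transporter of the blood-brain barrier, read 11.69, 11.87, 11.70 and 11.60 against 10.95, 11.24, 11.11 and 11.08 (0.62 ± 0.11, 0.0908). The groups did not overlap for either gene, and neither passed as deposited or after quantile normalization (0.0681 and 0.0849), while both did after centring (0.0278 and 0.0294). The list medians were 0.02 over 22 genes of glucose uptake and glycolysis, 0.03 over 57 of oxidative phosphorylation, −0.01 over 37 ribosomal proteins, 0.01 over 31 proteasome subunits and −0.06 over 29 of amino acid supply.

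Cholesterol synthesis was the list of function with the lowest share above 0, with 18 of 19 genes below and a median of −0.15, beside −0.06 for all genes. None was called. At an unadjusted p under 0.05, 4 were lower and 0 higher, beside 8.03% and 2.5% of all genes. Mvd, which makes isopentenyl diphosphate, read 6.65, 7.05, 7.25 and 6.91 against 7.10, 7.32, 7.30 and 7.54 (−0.35 ± 0.14). Insig1, which holds the sterol sensor back, read −0.28 ± 0.12, Sqle, the squalene epoxidase, −0.28 ± 0.13 and Dhcr7, the last reductase, −0.26 ± 0.12. Of these 4 Dhcr7 alone had groups that do not overlap. After quantile normalization 17 of 19 lay below 0, with the same median, and after centring 12, with −0.07.

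Among the cell type markers Opalin was the 1 call. Of 15 neuron markers 12 lay above 0, with a median of 0.02, but 8 after quantile normalization. Of 13 markers of forebrain excitatory neurons 6 lay above 0, with a median of −0.00 and a range of −0.46 to 0.30. The lowest of them, Slc17a7, the vesicular glutamate transporter of cortical neurons, read 7.71, 7.44, 7.73 and 7.05 against 7.86, 7.98, 8.17 and 7.75 (−0.46 ± 0.16, adjusted p = 0.349, limma). Of 17 astrocyte markers 10 lay above 0. Gjb6, a gap junction protein of astrocytes that is also in the glucocorticoid list, read 0.59 ± 0.14 (0.197), and Sox9, their transcription factor, −0.37 ± 0.12 (0.346).

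Of 15 microglia markers 12 lay below 0, beside 63.7% of all genes, with a median of −0.09. At an unadjusted p under 0.05, 4 were lower, beside 8.03% of all genes. The mean of the 15 markers was 6.91 to 7.09 in sleep-deprived and 7.10 to 7.24 in control brains, which just do not overlap. Aif1, a calcium-binding protein of microglia, read 7.46, 7.07, 7.26 and 7.35 against 7.53, 7.70, 7.78 and 7.70 (−0.39 ± 0.12, adjusted p = 0.325, limma), P2ry12, their purine receptor, −0.39 ± 0.15, and Ctss, a lysosomal protease, 0.22 ± 0.11. After quantile normalization and after centring 9 of the 15 were below 0. For tissue that adheres to the brain the median was −0.15 over 13 markers of meninges, −0.07 over 12 of choroid plexus (0.03 after quantile normalization) and −0.26 over 7 of blood (−0.17), with 0 called.

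**Figure D5:**
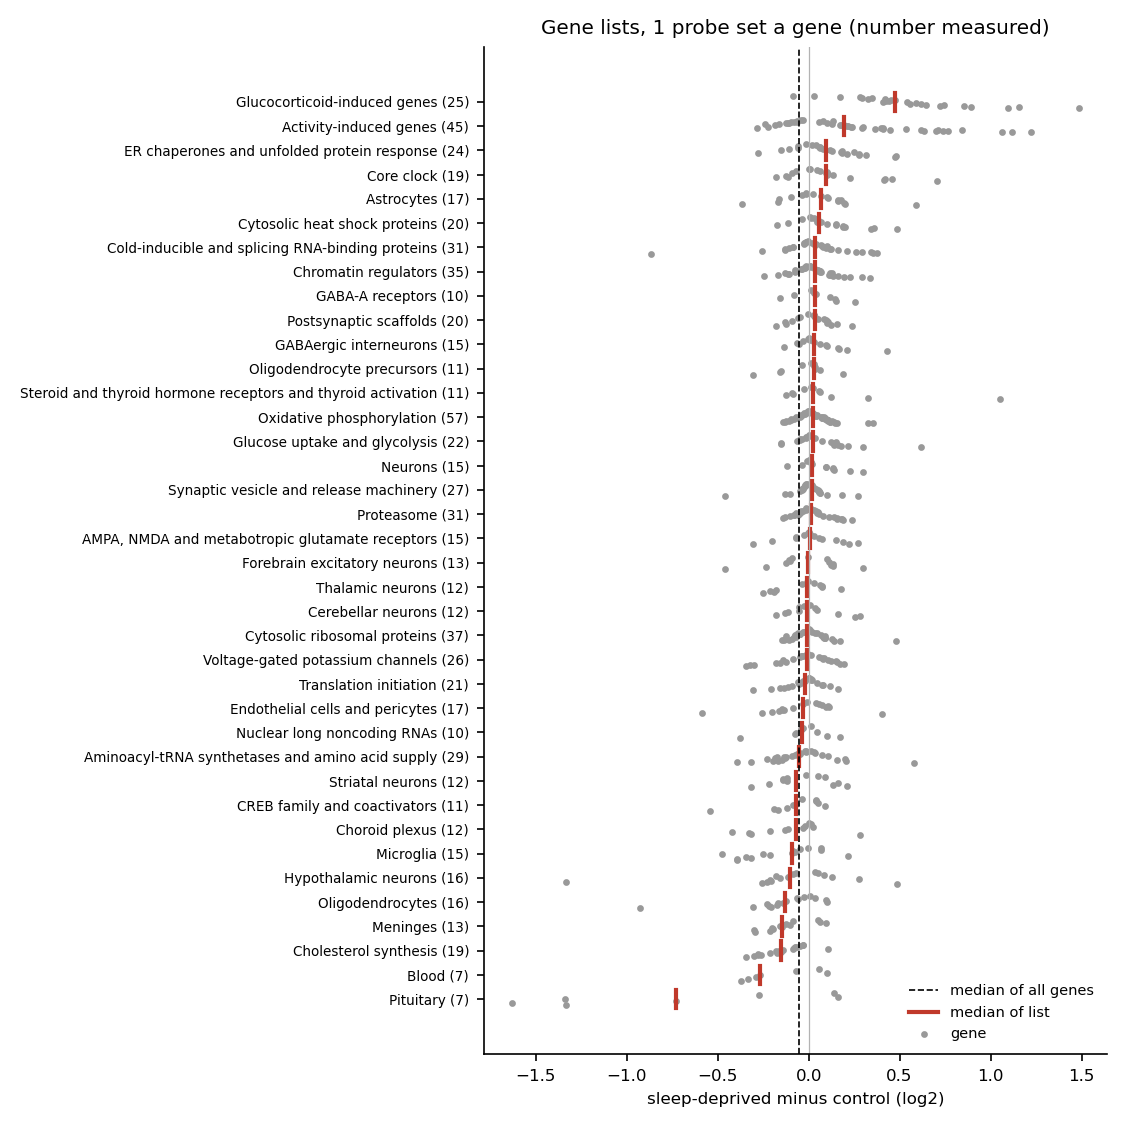
Difference between sleep-deprived and control means (log2) for each gene of 38 lists, with the median of each list in red and that of all genes as a dashed line at −0.06. Glucocorticoid-induced (0.48) and activity-induced genes (0.20) lie highest, the pituitary list (−0.73) lowest, and most other medians lie near the line.

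Genes of the synapse itself were close to 0. The median was 0.01 over 15 glutamate receptors, 0.03 over 10 GABA-A receptor subunits, 0.03 over 20 postsynaptic scaffolds, 0.02 over 27 genes of vesicle release and −0.01 over 26 potassium channels, with 0 called in these 5 lists. The NMDA receptor subunit Grin2b read −0.30, the AMPA receptor subunit Gria1 0.22 and the channel Kcna3 −0.35. Of 16 markers of hypothalamic neurons 6 lay above 0 and 10 below, with a median of −0.10 and 0 called. Among them Crh, the releasing hormone that starts the stress axis, read 8.59, 8.41, 8.70 and 8.52 against 8.19, 8.11, 8.10 and 7.88. The groups did not overlap, and the difference of 0.48 ± 0.11 did not pass (adjusted p = 0.207, limma).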

How the data were processed

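Values were deposited by the authors as log2 intensities per probe set, made per the submitters' processing notes with the affy package and RMA (background correction, normalization and summarization over the probes of a set). The sources used here do not say which arrays were normalized together or whether whole-brain RNA was amplified. The values were used as deposited. Of 45101 probe sets 64 array controls were left out. The array annotation of 2016 gave 1 symbol for 34945, several for 932 and none for 9160, and Entrez identifiers of 34741 were found in RefSeq.

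Sleep-deprived and control arrays (4 and 4) were compared with limma 3.58.1 in R 4.3.3 (lmFit, eBayes, two-sided, Benjamini-Hochberg over 45037 probe sets, threshold 0.05), after a check on simulated data. That check called 10 of 50 changes of 0.5 log2 and 49 of 50 of 1 log2. It also called 14 unchanged probe sets, so most changes of the size of the small falls would be missed. The pull-down (6 and 6) was fitted likewise, and the difference between extracts over 20 arrays. Array measures were compared by exact permutation. A call needs an adjusted p under 0.05, and an unadjusted count is no call of its members.

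Lists use 1 probe set a gene, that of the highest mean. Genes named are all calls, the 12 largest rises and 12 largest falls under the rule given with the falls, up to 6 members of each list by test statistic, and the other probe sets of called genes. Mbp, Sox10 and Fshb were added after their values were seen. The members and lists were chosen with earlier results of these data known, so their counts are a description. Motifs were searched on both strands of the 250 bases before each RefSeq start. Precision is limited by the number of arrays, which carry no depth, and p-values measure the spread between these samples. The alternatives tried were quantile normalization, centring, filters on level, kind and gene, trend with robust fitting, array weights, the pooled fit, and leaving out arrays. No array pair was identical (highest correlation r = 0.991, sleep-deprived 19 and 20, across probe sets).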

Additional observations from a re-analysis of the deposited data

Results flagged for a closer look

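Of 74 groups of 4 arrays examined among the named genes, 3 (4.05%) held a value far from the other 3, beside the 1 in 20 that chance gives. Control 24 read 6.11 for Fos, above the other controls. Control 25 read 5.99 for Noxred1, below the other controls. Sleep-deprived 19 read 6.21 for Trim59, below the other sleep-deprived brains. None of these makes the groups overlap.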

How the results depend on the processing

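None of the 21 calls changed direction under the alternatives run, and Plin4 passed in 16 of 17. The number called (21, of which 16 higher and 5 lower) was 62 (46 and 16) with trend and robust fitting, 54 (40 and 14) above the median level, 46 (40 higher) with centred arrays, and 1 (1 and 0) without the 2 arrays of lowest growth hormone signal, which was added after seeing the data. Quantile normalization left 2 falls. Pooled with pull-down arrays, limma called 0 (0 and 0), with 67 rises and 102 falls at an unadjusted p under 0.05. Leaving out each array gave 1 to 16 called, 1 to 14 higher and 0 to 2 lower, with 840 to 1032 unadjusted rises and 2693 to 5103 falls. Unadjusted rises (947) and falls (3979) were 1914 and 1692 with quantile normalization, 2434 and 1673 with centring, 512 and 1605 at 1 probe set a gene, and 165 and 118 among 3358 probe sets enriched in pull-down, where fewer were tested. Falls were 1387 above the median level. The median difference (−0.07) was −0.0012 with quantile normalization, 0.0148 with centring, −0.0160 above the median level and 0.0320 among enriched probe sets. Except for fewer probe sets or arrays, the cause was not tested. No paired analysis was possible because the numbers of the groups, 18 to 21 and 22 to 25, are not shared. Low signal limits Esr1 at 1421244_at, and 4 arrays a group limit small differences.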
